A study of Mus musculus with 12 samples.

Results

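The nuclear genes of the mouse respiratory chain were followed across 4 genotypes. The genes were taken by symbol: those starting with Nduf, Uqcr or Atp5, the genes Sdha to Sdhd, and those starting with Cox4i, Cox5, Cox6, Cox7 or Cox8, on nuclear chromosomes and without pseudogenes. Of 104 matching rows, 92 were kept of 49671 genes in the table. Those left out were 7 named as pseudogenes, 4 annotated as processed pseudogenes without such a name, and 1 other symbol. The 92 genes are 43 of complex I (35 subunits and 8 assembly factors), 4 of complex II, 8 of complex III, 20 of complex IV and 17 of complex V. The choice went by symbol and used no values of expression, though it was made with earlier results of these data known. All 4 genes of complex II and all 8 of complex III were testable, and over the 5 complexes 87 of 92 were. The other 5, all restricted isoforms of complex IV, had too few counts.

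The RNA was labelled as that of pooled embryos of embryonic day 9.5, in 4 groups of 3 libraries: knocked out for both Lyl1 and Scl (double KO), for Scl alone (Scl KO), for Lyl1 alone (Lyl1 KO), and wild type. Scl is the gene Tal1 in mouse annotation. Both proteins are related transcription factors of the basic helix-loop-helix family, known for their part in blood formation. The labels give no allele design, strain, driver or number of embryos in a pool. They call the libraries biological replicates without saying whether each was a separate pool, so the p-values describe how these libraries vary. The study asked how loss of either factor or both changes gene expression.

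Library totals lay between 24324685 and 29212443 counts. Tal1 averaged 92.8 ± 13.03 CPM in double KO and 109 ± 13.9 CPM in Scl KO libraries, against 579 ± 39.0 CPM in Lyl1 KO and 572 ± 65.5 CPM in wild-type libraries (SD, n = 3 each; CPM is the count scaled to a common library size, here by TMM, a factor that lines up the bulk of genes between libraries). Lyl1 averaged 84.1 ± 25.8 CPM in double KO and 87.7 ± 2.46 CPM in Lyl1 KO libraries, against 175 ± 49.96 CPM in Scl KO and 181 ± 28.5 CPM in wild-type libraries. Both targeted genes were thus lower where the labels say but not at 0. The tissue label is embryo. In these libraries 10 megakaryocyte and platelet markers summed to between 15430 and 31270 CPM in double KO, 40190 and 54890 CPM in Scl KO, 57820 and 66560 CPM in Lyl1 KO, and 52810 and 60240 CPM in wild-type libraries. In contrast, 8 heart and skeletal muscle markers summed to at most 11.4 CPM in any library (Myh6 and Nkx2-5 at 0 counts). That value was from wild-type replicate 3, beside 0.791 and 0.741 CPM in wild-type replicates 1 and 2. In the other groups the sum was at most 2.67 CPM. The 5 neural markers summed to at most 7.01 CPM (Sox1 at 0 counts). The RNA was thus rich in megakaryocyte transcripts and nearly without muscle and neural ones, which is not the make-up of a whole embryo. The tissue label does not say which cells were taken. Macrophage markers (all 5 detected) summed to between 2795 and 3215 CPM in double KO, 3108 and 4083 CPM in Scl KO, 4287 and 6318 CPM in Lyl1 KO, and 3489 and 5325 CPM in wild-type libraries. Red cell markers (4 of 7 reached 1 CPM in any library, none at 0 counts) summed to between 27.5 and 117 CPM in double KO, 154 and 260.1 CPM in Scl KO, 339.7 and 387 CPM in Lyl1 KO, and 197.6 and 206 CPM in wild-type libraries. The part of these cell types in the results that follow was not tested. In bulk RNA, fewer cells of a type and less RNA per cell cannot be told apart.

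The respiratory chain sits in the inner mitochondrial membrane. Complex I takes electrons from NADH and complex II takes them from succinate; complex III passes them to cytochrome c and complex IV passes them on to oxygen. Complexes I, III and IV pump protons, and complex V, the ATP synthase, lets the protons back through its membrane part, Fo, to drive ATP formation in its head, F1. Nuclear genes encode most subunits, and mitochondrial DNA encodes the remaining ones, so that the assembled complexes draw on both genomes. Several complex IV subunits exist as pairs, with one broadly expressed form and another known from muscle, testis, lung or low oxygen.

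Per kb of gene length, the respiratory chain genes were among the more abundant transcripts. The median over the 87 tested genes was 28.1 CPM per kb, against 3.76 CPM per kb over all 15399 genes tested, and 73 of the 87 lay above that second value. The median was 16.9 CPM per kb in complex I, 39.7 in complex II, 36.3 in complex III, 69.5 in complex IV and 39.2 in complex V. Atp5a1, the alpha subunit of the F1 head, was the highest of complex V at 224 CPM per kb (191 to 258 over the 12 libraries), and Cox6a1, the broad form of subunit VIa, the highest of complex IV at 178 CPM per kb (122 to 223). Ndufa6, an accessory subunit of complex I, stood at 132 CPM per kb. Uqcrh, the hinge protein of complex III, was at 75.8, and Sdhd, a membrane anchor of complex II, at 61.6. At the low end were Ndufab1, the mitochondrial acyl carrier protein, at 1.68 CPM per kb, and Sdhc, the other membrane anchor, at 19.2. In the other complexes these were Uqcrc1, a core protein of complex III, at 23.3, Ndufa4l2 at 0.724, and Atp5g2 at 0.268. The scale matters to this order: by CPM without length, the highest were Ndufa3, Sdha, Uqcrc2, Cox5a and Atp5a1 in the order of the complexes.

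Some low levels stand beside a property of the transcripts. The counting left out reads that map to several places, and processed pseudogenes repeat the sequence of many of these genes. Of the 87 tested genes, 19 shared at least 10% of their 50-base stretches exactly with another annotated gene, and their median level was 15.6 CPM per kb, against 34.3 CPM per kb for the 68 that shared less. Atp5l, an Fo subunit, shared 68.5% with 13 other genes, 12 of them pseudogenes, and Cox7c, a subunit of complex IV, shared 27.9%. The share was 17.7% for Cox7a2l, 3.4% for Cox5a and 0 for Ndufs4. Not all sharing genes were low: levels ran from 0.268 to 178 CPM per kb among the 19 and from 0.724 to 224 among the 68. Cox6a1, the highest of the 19, shared 12.3%, and Ndufb9, at 88.1 CPM per kb, shared 23.4%. The gene length that divides the level was 6443 bases for Atp5l, whose longest coding transcript has 544. The parts of sharing and of gene length in the levels were not tested.

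**Figure D1:**
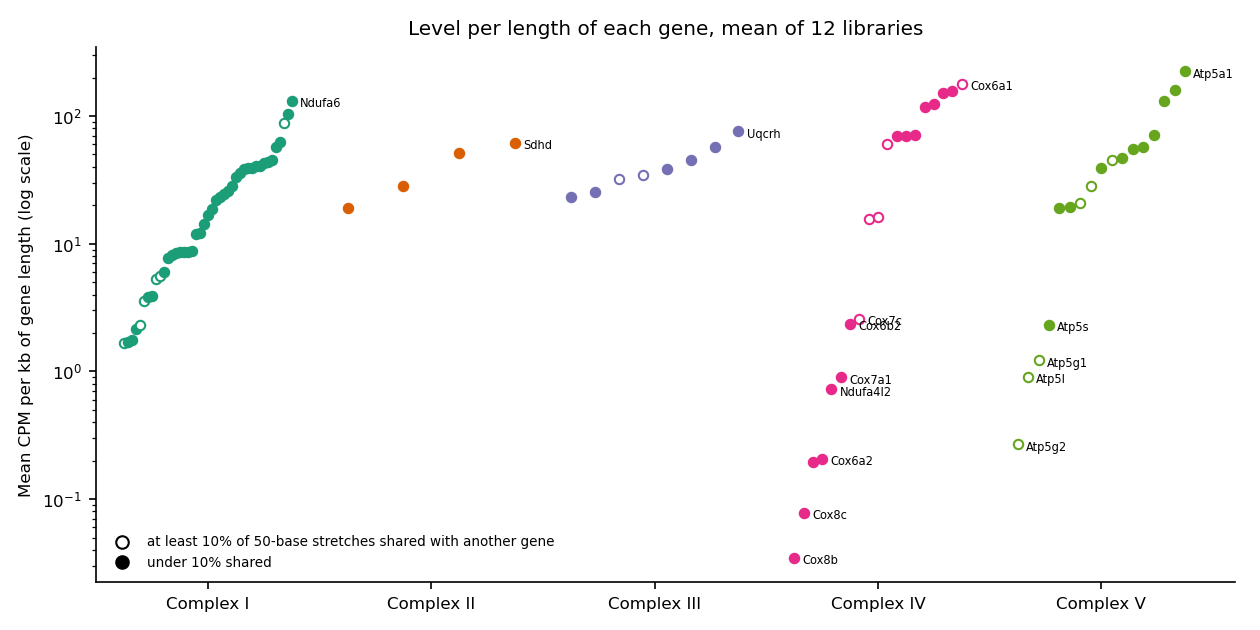
Mean level over 12 libraries in CPM per kb of gene length (log axis), with 1 point per gene, set out by complex; open points share at least 10% of their 50-base stretches with another gene, and Cox7b2, at 0 counts, is not drawn. The highest gene of each complex lies between 61.6 (Sdhd) and 224 CPM per kb (Atp5a1), and 7 of the 8 restricted isoforms of complex IV are drawn at its low end.

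In double KO libraries single genes of each of the 5 complexes passed the test, some of them higher and others lower. Against wild type, 13 of the 87 tested genes were called (edgeR's quasi-likelihood test, Benjamini-Hochberg adjusted p under 0.05 over 15399 genes), 7 higher and 6 lower. Without wild-type replicate 3 the split was 13 higher and 4 lower, and without wild-type replicate 1 it was 4 higher and 7 lower. The 13 are 14.9% of them, against 34.5% of all genes tested (16.4% higher and 18.1% lower). Their median log2 change was 0.07, beside 0.04 over all genes. The falls were in 2 accessory subunits of complex I (Ndufs4, Ndufb9), 3 genes of complex IV (Cox5a, Ndufa4, Cox6b2) and 1 Fo subunit (Atp5j2). The rises included redox subunits of complexes I, II and III (Ndufv1, Sdha, Uqcrfs1), Ndufa10 and Atp5j, and in Cox7a2l. With library totals in place of TMM factors the count was 52, of which 49 were higher: on that scale the median of all genes lay at 0.46 and that of the 87 genes at 0.48. Each of the 87 changes was higher by 0.39 to 0.45 than with TMM, and 28 of them had the other sign. The TMM factors were 1.14 to 1.30 in double KO, 0.950 to 1.08 in Scl KO, 0.846 to 0.916 in Lyl1 KO and 0.894 to 0.957 in wild-type libraries. The 92 genes held 0.645% to 0.795%, 0.524% to 0.657%, 0.513% to 0.573% and 0.474% to 0.589% of the raw counts in the same order of groups. With DESeq2's size factors the split was 6 higher and 8 lower.

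**Figure D2:**
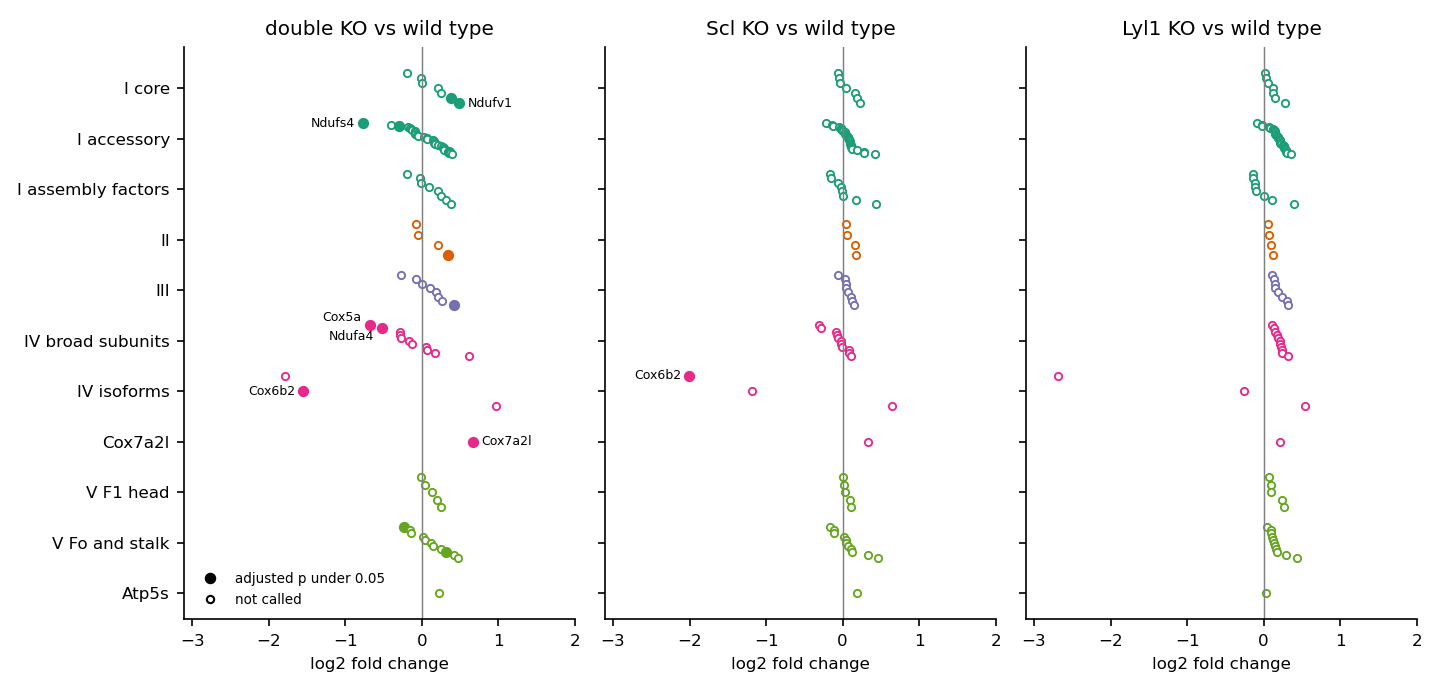
The log2 fold change of the 87 tested genes in each KO group against wild type, set out by complex and role; filled points have an adjusted p under 0.05. In double KO libraries 13 points are filled on both sides of 0, in Scl KO libraries 1 (Cox6b2), and in Lyl1 KO libraries none.

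Cox5a encodes subunit Va of cytochrome c oxidase, which faces the matrix. Its level was 170.3, 179 and 169.8 CPM in double KO libraries, 228, 234 and 209 CPM in Scl KO, 353, 308 and 308 CPM in Lyl1 KO, and 254, 289 and 287 CPM in wild-type libraries. Every double KO library was below every library of each other group, the Scl KO libraries were below wild type, and the Lyl1 KO libraries were above wild type. The log2 change of double KO against wild type was -0.68 ± 0.10 (SE; edgeR adjusted p = 0.000231), and -0.26 with library totals (adjusted p = 0.0272). It was -0.31 ± 0.10 for Scl KO (edgeR adjusted p = 0.103) and 0.22 ± 0.10 for Lyl1 KO (edgeR adjusted p = 0.579), neither called. Under DESeq2's Wald test the Scl KO change was called (adjusted p = 0.0197).

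Ndufs4 encodes an accessory subunit of complex I beside the NADH-oxidising arm; its loss in people and mice is known to cause a Leigh-like brain disease. It was at 48.2, 44.1 and 40.2 CPM in double KO libraries, 69.4, 70.1 and 67.5 CPM in Scl KO, 78.0, 70.1 and 74.7 CPM in Lyl1 KO, and 67.1, 79.1 and 79.4 CPM in wild-type libraries. The double KO libraries stood below all 9 others, and the other 3 groups overlapped with each other. The change in double KO against wild type was -0.77 ± 0.10 (SE; edgeR adjusted p = 9.65e-05), the largest fall among the called genes of the chain after that of Cox6b2. With library totals it was -0.36 (adjusted p = 0.00779).

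Cox7a2l encodes a factor that joins complexes III and IV into supercomplexes. It rose to 90.7, 96.5 and 79.5 CPM in double KO libraries, beside 66.3, 69.4 and 74.9 CPM in Scl KO, 67.2, 66.5 and 59.9 CPM in Lyl1 KO, and 52.1, 53.9 and 60.95 CPM in wild-type libraries. Each double KO library was above all 9 others. The change against wild type was 0.68 ± 0.10 (SE; edgeR adjusted p = 0.000329), and 1.08 with library totals.

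Cox6b2 is the testis form of subunit VIb and was near the low end of the tested range. It was at 1.27, 1.43 and 0.812 CPM in double KO and 0.967, 0.642 and 0.945 CPM in Scl KO libraries, against 4.82, 5.12 and 4.98 CPM in Lyl1 KO and 3.66, 3.40 and 3.21 CPM in wild-type libraries. Both groups without Scl were below both groups with it, with no overlap. It was the 1 gene of the 87 called in Scl KO libraries against wild type, at -2.003 ± 0.27 (SE; edgeR adjusted p = 0.00118), where 1 of 87 was called beside 5.03% of all genes tested (2.29% higher and 2.73% lower). Without wild-type replicate 3, 2 were called. In double KO libraries the change was -1.55 ± 0.26 (edgeR adjusted p = 0.000694). Its broad counterpart Cox6b1 had a log2 change of -0.29 ± 0.11 in double KO (edgeR adjusted p = 0.0543) and of -0.02 ± 0.11 in Scl KO libraries (edgeR adjusted p = 0.955). In double KO it was called under 5 alternatives, among them DESeq2's Wald test (adjusted p = 0.0270) and the fit without double KO replicate 3 (adjusted p = 0.0295), and it was at 0.13 with library totals.

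**Figure D3:**
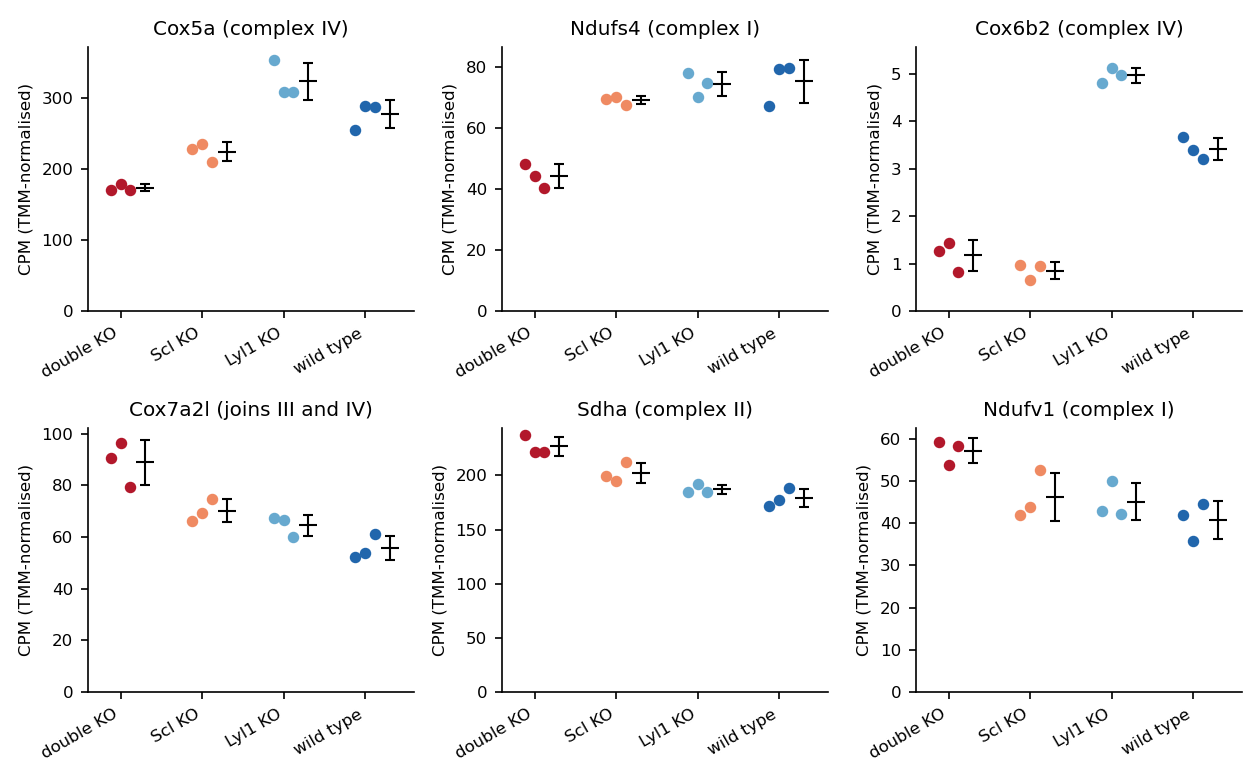
Level in CPM (TMM-normalised) of 6 genes, with 1 point per library and the mean ± SD of 3 libraries beside each group. Cox5a and Ndufs4 are lowest in double KO libraries, Cox6b2 is low in both groups without Scl, and Cox7a2l, Sdha and Ndufv1 are highest in double KO libraries.

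The promoters of these 4 genes are printed because theirs were the largest changes among the 6 genes that kept their call in double KO against wild type under all 22 alternatives run. Sequences are from RefSeq, build GRCm38.p6, 250 bases before to 50 after the transcript start, read along the gene. Capitals mark GGGCGG, the core of the SP1 site, or its reverse complement, and in Ndufs4 the YY1 core AAGATGG. Cox5a lies at chr9:57520982-57521281 (plus strand), Ndufs4 at chr13:114388045-114388344 (minus strand), Cox7a2l at chr17:83514284-83514583 (minus strand) and Cox6b2 at chr7:4753045-4753344 (minus strand).
Cox5a: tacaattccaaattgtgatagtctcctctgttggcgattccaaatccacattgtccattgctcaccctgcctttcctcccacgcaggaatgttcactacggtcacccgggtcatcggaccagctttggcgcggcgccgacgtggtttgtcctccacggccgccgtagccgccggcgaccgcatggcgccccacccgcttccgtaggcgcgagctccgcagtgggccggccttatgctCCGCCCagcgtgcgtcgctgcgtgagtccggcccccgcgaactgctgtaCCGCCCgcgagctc
Ndufs4: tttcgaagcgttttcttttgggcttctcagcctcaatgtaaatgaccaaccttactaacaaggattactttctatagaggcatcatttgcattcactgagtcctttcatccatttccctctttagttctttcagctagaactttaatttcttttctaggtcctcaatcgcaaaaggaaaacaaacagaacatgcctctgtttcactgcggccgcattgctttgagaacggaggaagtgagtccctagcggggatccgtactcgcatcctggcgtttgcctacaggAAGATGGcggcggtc
Cox7a2l: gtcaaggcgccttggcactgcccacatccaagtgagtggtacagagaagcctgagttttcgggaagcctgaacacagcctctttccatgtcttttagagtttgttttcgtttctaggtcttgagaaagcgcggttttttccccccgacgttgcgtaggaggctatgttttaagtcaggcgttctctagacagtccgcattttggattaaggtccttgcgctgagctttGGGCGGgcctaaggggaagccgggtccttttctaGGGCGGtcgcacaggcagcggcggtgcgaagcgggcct
Cox6b2: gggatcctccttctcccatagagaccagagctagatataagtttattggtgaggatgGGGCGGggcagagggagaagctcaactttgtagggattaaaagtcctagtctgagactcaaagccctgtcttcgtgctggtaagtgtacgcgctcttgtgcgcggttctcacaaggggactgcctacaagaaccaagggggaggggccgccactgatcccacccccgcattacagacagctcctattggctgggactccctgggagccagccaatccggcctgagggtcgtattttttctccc
In Cox5a a match starts 13 bases before the transcript start and another 37 bases after it. Ndufs4 holds the YY1 core 36 bases after the start and no SP1 core. Cox7a2l holds SP1 cores 22 before and 13 after the start, and Cox6b2 1 at 193 bases before.

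Promoters of 73 of the 92 genes were in the RefSeq table. Searched on both strands, the full NRF1 site (GCGC, then AT, then GCGC) was in 7 of the 73 (9.6%), against 1.1% of 27025 genes with a promoter in the table. Its looser form, in which any NN stands between GCGC and GCGC and which includes the full site, was in 28.8% against 7.0%. The ETS core CCGGAAG, which GABPA binds, was in 23.3% against 9.9%, the YY1 core in 15.1% against 7.3%, and the SP1 core in 45.2% against 38.2%. NRF1, GABPA, YY1 and SP1 are known regulators of respiratory genes. None of the 4 printed windows holds either NRF1 form or the ETS core. A match is a description of letters in this window, not a site or a cause.

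Ratios of counts within a library do not depend on how libraries are scaled. The pairs below were chosen after the values were seen. Cox5a over Cox4i1, its neighbour in the early assembly of complex IV, was 0.928, 0.985 and 0.833 in double KO, 1.24, 1.26 and 1.02 in Scl KO, 1.73, 1.41 and 1.49 in Lyl1 KO, and 1.39, 1.79 and 1.43 in wild-type libraries. This ratio was lowest in double KO libraries with no overlap, and lower in Scl KO than in wild-type libraries with no overlap. The separation depended in part on the partner gene. Cox5a over Cox5b was 7.233, 7.621 and 6.675 in double KO and 10.98, 9.511 and 7.499 in Scl KO libraries. It was 12.92, 9.604 and 11.64 in Lyl1 KO and 13.34, 13.17 and 10.24 in wild-type libraries. With Cox5b, double KO stayed below Lyl1 KO and wild type but overlapped Scl KO, and Scl KO overlapped wild type. Cox7a2l over Cox7a2, the broad form of subunit VIIa, was 1.37, 1.96 and 1.30 in double KO, 1.01, 1.09 and 1.14 in Scl KO, 0.973, 0.879 and 0.798 in Lyl1 KO, and 0.837, 0.886 and 0.819 in wild-type libraries. Here the order seen for Cox5a over Cox4i1 was turned round, with double KO above Scl KO and Scl KO above wild type.

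**Figure D4:**
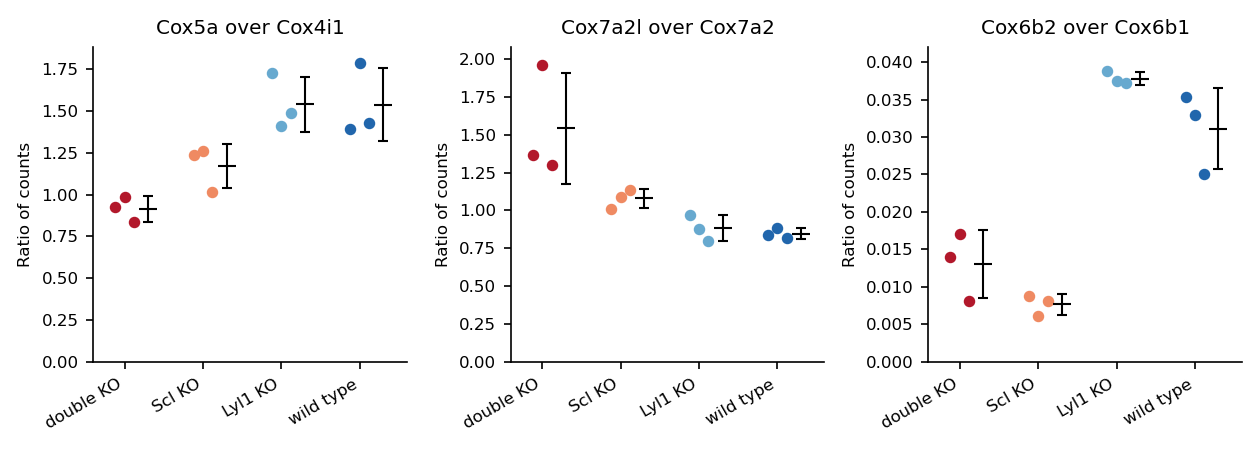
Ratio of the counts of 2 genes within a library, with 1 point per library and the mean ± SD of 3 libraries beside each group. Cox5a over Cox4i1 is lowest in double KO libraries (mean 0.915), Cox7a2l over Cox7a2 is highest there (mean 1.54), and Cox6b2 over Cox6b1 is low in both groups without Scl.

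The flavin and iron-sulfur centres of complex I lie in core subunits, though not every core subunit holds one. Ndufv1, the NADH-binding subunit, rose in double KO against wild type. It was at 59.4, 53.9 and 58.4 CPM in double KO libraries, 42.0, 44.0 and 52.6 CPM in Scl KO, 42.8, 50.1 and 42.3 CPM in Lyl1 KO, and 42.0, 35.7 and 44.5 CPM in wild-type libraries. Every double KO library was above the other 9 (log2 change 0.49 ± 0.12 SE against wild type, edgeR adjusted p = 0.00719). Ndufv2, the partner of Ndufv1 in the NADH-oxidising module, had a log2 change of -0.19 ± 0.10 (edgeR adjusted p = 0.193). Ndufv1 over Ndufv2 was between 0.918 and 1.06 in double KO and between 0.499 and 0.679 in wild-type libraries. Of the other core subunits, Ndufs7 was at 0.22, Ndufs3 at 0.25, Ndufs1 at 0.01 and Ndufs8 at 0.00, none called.

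Of the 28 accessory subunits of complex I, 1 rose and 2 fell. Ndufa10 was at 51.1, 50.4 and 60.2 CPM in double KO and 40.6, 38.4 and 47.9 CPM in wild-type libraries (0.35 ± 0.11, edgeR adjusted p = 0.0303). Ndufb9 was at 51.7, 47.5 and 46.4 CPM in double KO and 55.0, 54.3 and 69.7 CPM in wild-type libraries (-0.30 ± 0.10, edgeR adjusted p = 0.0383). Neither pair of groups overlapped, but the calls rested on single libraries: that of Ndufa10 was lost without double KO replicate 3, wild-type replicate 1 or wild-type replicate 2 (adjusted p up to 0.118), and that of Ndufb9 on leaving out any of 7 libraries (up to 0.117), that is all but double KO replicate 1, Scl KO replicates 1 and 3 and wild-type replicates 1 and 2. None of the 8 assembly factors Ndufaf1 to Ndufaf8 was called; their summed level was 69.0 ± 6.20 CPM in double KO and 64.4 ± 4.18 CPM in wild-type libraries (SD, n = 3 each).

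In complex II, whose Sdha subunit holds the flavin and oxidises succinate, Sdha was at 237, 222 and 222 CPM in double KO libraries, 199.6, 195 and 212 CPM in Scl KO, 185, 192 and 185 CPM in Lyl1 KO, and 172, 177 and 188 CPM in wild-type libraries. The double KO libraries were above all others and the Scl KO libraries above wild type. The change in double KO was 0.34 ± 0.08 (SE; edgeR adjusted p = 0.00665), and the adjusted p was 0.0519 in a fit of those 2 groups alone. The iron-sulfur subunit Sdhb was at -0.07 ± 0.09 and the anchors Sdhc and Sdhd were at -0.04 ± 0.09 and 0.21 ± 0.14, none called. Sdha over Sdhb was between 3.63 and 4.05 in double KO and between 2.82 and 2.96 in wild-type libraries.

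In complex III, Uqcrfs1, the Rieske iron-sulfur protein, was at 56.1, 55.6 and 72.8 CPM in double KO libraries, 46.2, 43.8 and 63.2 CPM in Scl KO, 51.3, 51.4 and 49.6 CPM in Lyl1 KO, and 45.6, 41.4 and 51.1 CPM in wild-type libraries. Its change in double KO was 0.42 ± 0.15 (edgeR adjusted p = 0.0480), a call lost on leaving out any library but Scl KO replicates 2 and 3 and wild-type replicate 3 (adjusted p up to 0.202). The core proteins Uqcrc1 and Uqcrc2 were at 0.10 ± 0.10 and 0.21 ± 0.12 and not called. Uqcrh, which lies 1.0 Mb from Tal1 on chromosome 4, was at 0.27 ± 0.12 in double KO (edgeR adjusted p = 0.0982; 0.00637 without wild-type replicate 3) and at 0.11 ± 0.12 in Scl KO libraries (edgeR adjusted p = 0.692).

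In complex IV, cytochrome c oxidase, 2 of the 11 broad subunits fell in double KO libraries against wild type and none rose, beside the 18.1% of all genes that were lower. Their median change was -0.16, which is 0.20 below the median of all genes. With library totals it was 0.21 below, and the median itself was 0.25. That scale shifted each of the 87 changes by 0.39 to 0.45, nearly alike, so the second gap is no separate check. Ndufa4, first assigned to complex I and now known as a complex IV subunit, was at 72.7, 71.2 and 79.6 CPM in double KO, 87.5, 82.2 and 92.3 CPM in Scl KO, 109.7, 119 and 117 CPM in Lyl1 KO, and 93.8, 109.4 and 117 CPM in wild-type libraries. The double KO libraries were below all others and the Scl KO libraries below wild type. The change in double KO was -0.52 ± 0.10 (SE; edgeR adjusted p = 0.00152), and -0.10 with library totals, which was not called (adjusted p = 0.528). Cox4i1, a broadly expressed nuclear-encoded subunit, was at a log2 change of 0.06 ± 0.10, Cox5b at 0.07 ± 0.15 and Cox8a at 0.18 ± 0.11. Cox6a1 was at -0.27 ± 0.12, Cox7a2 at -0.16 ± 0.12, Cox7b at -0.29 ± 0.11, and Cox7c at 0.61 ± 0.24. None of these was called. Without double KO replicate 3, Cox7b and Cox6a1 were called (adjusted p = 0.0286 and 0.0408), and Cox7b also under DESeq2's Wald test (adjusted p = 0.0482) and with the replicate block (adjusted p = 0.0243). With library totals Cox6a1, Cox7a2 and Cox7b lay above 0, at 0.14, 0.25 and 0.12.

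The restricted isoforms were scarce. Cox7b2 had no count in 12 libraries, Cox8b had 4 counts and Cox8c 12 over all libraries, and Cox4i2 and Cox6a2 had 49 and 43. Cox7a1, the heart and muscle form of subunit VIIa, was at most at 0.812 CPM, with a log2 change of 0.98 ± 0.81 in double KO that was not called. Ndufa4l2, known to be induced by low oxygen, was at 0.168, 0.697 and 0.406 CPM in double KO, 0.658, 1.21 and 0.0700 CPM in Scl KO, 0.0405, 0.339 and 0.298 CPM in Lyl1 KO, and 2.42, 2.00 and 0.0365 CPM in wild-type libraries. Its fitted changes were wide and not called: -1.79 ± 1.09 in double KO, -1.19 ± 1.06 in Scl KO and -2.68 ± 1.18 in Lyl1 KO (SE). It was high in wild-type replicates 1 and 2 and near 0 in replicate 3. The endothelial marker Cdh5 was at 1.54, 2.56 and 1.498 CPM in double KO, 3.79, 9.99 and 3.05 CPM in Scl KO, 0.486, 2.83 and 1.74 CPM in Lyl1 KO, and 14.3, 19.7 and 1.46 CPM in wild-type libraries. Its part in the level of Ndufa4l2 was not tested. The 4 endothelial markers were all detected. They summed to between 49.0 and 79.6 CPM in double KO and 52.4 and 64.0 CPM in Scl KO libraries. Lyl1 KO libraries were between 80.1 and 92.9 CPM. In wild-type replicates 1, 2 and 3 the sum was 85.7, 116 and 88.0 CPM. Unlike Cdh5 and Ndufa4l2, that sum was not lowest in wild-type replicate 3, so Cdh5 does not stand for the 4 markers there.

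In complex V, Atp5a1, Atp5b and Atp5c1, the alpha, beta and gamma subunits of the F1 head, had log2 changes of 0.20 ± 0.12, 0.04 ± 0.14 and 0.14 ± 0.10 in double KO, none called. The c subunit of the Fo ring is encoded by Atp5g1, Atp5g2 and Atp5g3, at 0.42 ± 0.20, 0.47 ± 0.47 and 0.05 ± 0.12, also not called. Atp5j, coupling factor 6 of the stalk, was at 63.4, 66.2 and 70.5 CPM in double KO and 48.6, 49.9 and 62.6 CPM in wild-type libraries (0.31 ± 0.10, edgeR adjusted p = 0.0339). Atp5j2, subunit f of Fo, was at 61.1, 52.7 and 57.5 CPM in double KO and 63.1, 68.0 and 70.8 CPM in wild-type libraries (-0.24 ± 0.08, edgeR adjusted p = 0.0458). The call of Atp5j was lost on leaving out any of 7 libraries (adjusted p up to 0.136), that is all but double KO replicate 1, Scl KO replicates 1 and 3, Lyl1 KO replicate 3 and wild-type replicate 3. That of Atp5j2 was lost on leaving out any but double KO replicate 1, Scl KO replicate 3 and wild-type replicate 1 (up to 0.161).

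The sums over a complex depended on the scaling. With TMM the 20 genes of complex IV summed to 1021 ± 56.5 CPM in double KO, 1119 ± 33.1 CPM in Scl KO, 1352 ± 29.0 CPM in Lyl1 KO and 1176 ± 88.8 CPM in wild-type libraries (SD, n = 3 each). The double KO libraries (959.5 to 1071 CPM) were below and the Lyl1 KO libraries (1327 to 1383 CPM) above the wild-type libraries (1115 to 1278 CPM), in 3 of 3 each. A large part of the gap between double KO and wild type was Cox5a, with means of 173 and 277 CPM. Without Cox5a, double KO replicate 3 (169.8 of its 1071 CPM) would lie above wild-type replicate 2 (288.6 of its 1135 CPM). The double KO and wild-type sums would then overlap. With library totals complex IV had means of 1254 CPM in double KO, 1118 CPM in Scl KO, 1204 CPM in Lyl1 KO and 1084 CPM in wild-type libraries. The double KO mean was the highest, but its libraries (1177 to 1396 CPM) overlapped each other group. Those ranges were 1052 to 1249 CPM in Scl KO, 1138 to 1258 CPM in Lyl1 KO and 1014 to 1222 CPM in wild-type libraries. With TMM the 35 complex I subunits summed to 1344 ± 86.6, 1365 ± 54.6, 1466 ± 40.4 and 1308 ± 131 CPM in the same order of groups. Complex II summed to 426.5 ± 20.4, 408 ± 29.0, 393.5 ± 8.86 and 372 ± 24.6 CPM, and complex III to 506 ± 48.4, 475.5 ± 34.7, 514.5 ± 17.5 and 454 ± 49.6 CPM. The 16 genes of complex V in the sum came to 2356 ± 273, 2273 ± 175, 2381 ± 57.8 and 2194 ± 223 CPM. Wild-type replicate 3 was the highest wild-type library for 75 of the 87 genes (86.2%, against 38.1% of all genes tested). Scl KO replicate 3 was the highest of its group for 62 (71.3%, against 39.8%), and Lyl1 KO replicate 2 for 58 (66.7%, against 33.1%). Double KO replicate 2 was the highest of its group for only 6 (6.9%, against 28.9%). The 13 mitochondrially encoded subunits summed to 12220 ± 1523 CPM in double KO, 10630 ± 1565 CPM in Scl KO, 9530 ± 873 CPM in Lyl1 KO and 9310 ± 890 CPM in wild-type libraries. Of these, mt-Nd3, mt-Nd4l, mt-Co2 and mt-Atp8 had no count in any library.

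**Figure D5:**
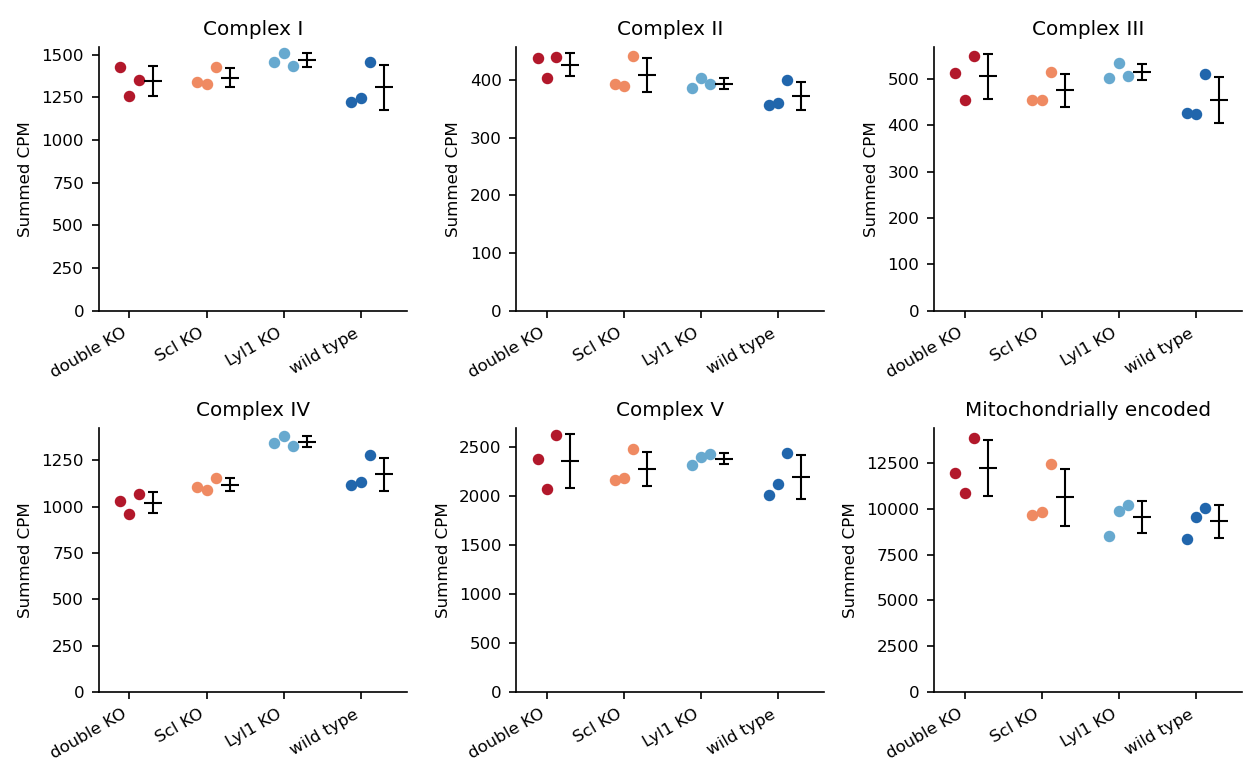
Summed CPM (TMM-normalised) of the nuclear genes of each complex and of the mitochondrially encoded subunits, with 1 point per library and the mean ± SD of 3 libraries beside each group. Complex IV is lowest in double KO (mean 1021 CPM) and highest in Lyl1 KO libraries (mean 1352 CPM) on this scale. With library totals its mean is highest in double KO libraries, which overlap each other group. Cox5a makes up 173 CPM of the complex IV mean in double KO and 277 CPM in wild-type libraries.

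In Lyl1 KO libraries none of the 87 genes was called against wild type, beside 0.0714% of all genes tested (0.039% higher and 0.0325% lower); 16 had an unadjusted edgeR p under 0.05, and DESeq2's Wald test and limma-voom called 0 as well. Without wild-type replicate 3, 33 had an unadjusted edgeR p under 0.05, and 0 were called. The fitted changes leaned upward: 77 of 87 were above 0, with a median of 0.15 against 0.00 for all genes. All 11 broad complex IV subunits were above 0 (0.11 to 0.31), as were all 8 genes of complex III (0.12 to 0.32) and all 17 of complex V (0.03 to 0.44; Atp5g2 and Atp5s lay just below 0 with library totals), whereas 3 of the 8 assembly factors were. The lean is relative to other genes: with library totals the median of the 87 was 0.0999 and that of all genes -0.0513. Library totals shifted each of the 87 changes by -0.0765 to -0.0063, so the gap on that scale is no separate check. The smallest edgeR p among them was that of Ndufs7, at 0.27 ± 0.09 (adjusted p = 0.509). The red cell markers were also higher in each Lyl1 KO library than in each wild-type library, and their part in these changes was not tested.

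Setting double KO against Lyl1 KO shows the effect of Scl loss where Lyl1 is already missing. There 23 of 87 genes were called (26.4%, against 35.2% of all genes tested, 17.4% higher and 17.9% lower), 5 higher and 18 lower, and the median change was -0.06 beside 0.06 for all genes. The 6 largest falls were those of Cox6b2 (-2.08 ± 0.26), Cox5a (-0.90 ± 0.10), Ndufs4 (-0.75 ± 0.10), Ndufa3 (-0.66 ± 0.15), Ndufa4 (-0.63 ± 0.10) and Uqcrq (-0.58 ± 0.13). In complex IV 5 of the 11 broad subunits fell, namely Cox5a, Ndufa4, Cox6b1 (-0.52 ± 0.11), Cox7b (-0.50 ± 0.11) and Cox6a1 (-0.46 ± 0.12). The median of the 11, -0.31, was 0.38 below that of all genes with TMM, and the gap was the same with library totals. Library totals shifted each of the 87 changes by 0.45 to 0.49, nearly alike, so the same gap there is no separate check. On that scale the median itself was 0.14, and 1 fell and 2 rose. The rises included Ndufaf7 (0.48 ± 0.17), Cox7a2l (0.46 ± 0.10), Ndufv1 (0.34 ± 0.12) and Sdha (0.28 ± 0.08). With library totals 40 were called, 37 of them higher. Leaving out double KO replicate 2 or Lyl1 KO replicate 1, 2 or 3 brought the count to 15, 14, 14 and 15. The call of Ndufv1 was lost on leaving out any of 5 libraries (adjusted p up to 0.128), namely double KO replicates 1 and 3, Scl KO replicate 2 and Lyl1 KO replicates 1 and 3. That of Sdha was lost without Lyl1 KO replicate 1, 2 or 3 (up to 0.0737).

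Ndufa3, a small membrane subunit of complex I, was at 97.4, 75.7 and 70.2 CPM in double KO libraries and 129, 129.9 and 126 CPM in Lyl1 KO libraries (edgeR adjusted p = 0.00439). Uqcrq, the ubiquinone-binding small subunit of complex III, was at 39.4, 31.2 and 44.7 CPM in double KO and 53.4, 62.7 and 56.0 CPM in Lyl1 KO libraries (edgeR adjusted p = 0.00456). Neither pair of groups overlapped. Both calls were lost with library totals, at -0.21 for Ndufa3 (adjusted p = 0.204) and -0.11 for Uqcrq (adjusted p = 0.571). Ndufaf7, a methyltransferase that acts in complex I assembly, was at 12.9, 11.4 and 8.90 CPM in double KO and 7.78, 7.16 and 8.76 CPM in Lyl1 KO libraries (edgeR adjusted p = 0.0469), a call lost on leaving out any library but double KO replicate 3 and Scl KO replicate 3 (adjusted p up to 0.167).

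Against Scl KO, 3 of 87 genes were called in double KO libraries, beside 19.1% of all genes tested (8.37% higher and 10.8% lower). Ndufs4 fell by 0.64 on the log2 scale (± 0.10 SE, edgeR adjusted p = 0.000920), Cox5a fell by 0.37 (± 0.10, edgeR adjusted p = 0.0187), and Cox7a2l rose by 0.34 (± 0.10, edgeR adjusted p = 0.0342). The count was 1 without Scl KO replicate 1 or 2, 9 without Scl KO replicate 3, and 24 with library totals, of which 23 were higher. The call of Ndufs4 was kept in all of these settings, at -0.35 with library totals. That of Cox5a was lost with library totals (-0.07, adjusted p = 0.576), with only the groups compared (adjusted p = 0.0708), and without Scl KO replicate 1 or 2 (adjusted p = 0.0655 and 0.0842), and that of Cox7a2l without double KO replicate 1 or 2, Scl KO replicate 1 or 2, or Lyl1 KO replicate 2 (adjusted p up to 0.138), and with only the groups compared (0.0804).

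The interaction asks whether loss of Lyl1 acts differently without Scl (double KO minus Scl KO) than with it (Lyl1 KO minus wild type). It was called for 2 of 87 genes, beside 9.38% of all genes tested (3.51% higher and 5.86% lower): Ndufs4 at -0.62 ± 0.14 (SE; edgeR adjusted p = 0.0160) and Cox5a at -0.59 ± 0.14 (edgeR adjusted p = 0.0198). For Ndufs4 loss of Lyl1 gave -0.64 without Scl and -0.02 with it; for Cox5a it gave -0.37 without Scl and 0.22 with it. Of the 87 genes 23 had an interaction above 0, and the median was -0.12 beside 0.04 over all genes. The calls depended on single libraries: none of the 87 was called without Lyl1 KO replicate 1 (12 had an unadjusted edgeR p under 0.05). The count was 1 without Scl KO replicate 1, Scl KO replicate 2 or Lyl1 KO replicate 3, and it was 4, 5, 3 and 7 without double KO replicate 1, double KO replicate 3, Scl KO replicate 3 and wild-type replicate 3. Ndufs4 was lost without Lyl1 KO replicate 1 or 3 (adjusted p = 0.0642 and 0.0502). Cox5a was lost without Scl KO replicate 1, Scl KO replicate 2 or Lyl1 KO replicate 1 (adjusted p = 0.0541, 0.0619 and 0.0734). Under library totals both were lost (adjusted p = 0.166 for Ndufs4 and 0.205 for Cox5a).

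Genes that work with the chain were counted in the same comparisons, in which 34.5% of all genes tested were called in double KO, 5.03% in Scl KO and 0.0714% in Lyl1 KO libraries against wild type. Of 43 tested assembly factors of complexes I to V outside the Nduf names, 6 rose and 2 fell in double KO against wild type. Tmem70, needed for ATP synthase assembly, rose by 0.63 ± 0.11 (edgeR adjusted p = 0.000783), and Sco1, a copper chaperone of complex IV, by 0.64 ± 0.14 (edgeR adjusted p = 0.00460). Sdhaf2, which attaches flavin to Sdha, was at -0.97 ± 0.14 (edgeR adjusted p = 0.000290) and Coa5, a complex IV assembly factor, at -0.87 ± 0.19 (edgeR adjusted p = 0.00396). Of 20 tested factors of mitochondrial transcription and biogenesis, 5 rose and 1 fell. Tfam, which packages mitochondrial DNA, was at 0.85 ± 0.18 (edgeR adjusted p = 0.00300) and Mterf4 at 0.56 ± 0.15 (edgeR adjusted p = 0.0132). The GABP beta subunits were called in both directions, Gabpb2 at 0.44 ± 0.10 (edgeR adjusted p = 0.00535) and Gabpb1 at -0.62 ± 0.10 (edgeR adjusted p = 0.000640). Of 7 tested mitochondrially encoded subunits, mt-Nd5 (0.51 ± 0.15, edgeR adjusted p = 0.0209) and mt-Nd4 (0.45 ± 0.14, edgeR adjusted p = 0.0271) rose. None of these 3 lists had a call in either single KO group against wild type. At an unadjusted edgeR p under 0.05 stood 4 assembly factors, 3 biogenesis factors and 0 mitochondrially encoded subunits in Scl KO libraries, and 2, 0 and 1 in Lyl1 KO libraries.

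In the tricarboxylic acid cycle, which feeds complexes I and II, 4 of 19 tested genes rose and 4 fell in double KO libraries, beside the 34.5% of all genes called. Succinyl-CoA synthetase pairs a shared subunit, Suclg1, with Suclg2 in its GTP-forming or with Sucla2 in its ATP-forming type. Suclg2 was at 34.2, 27.6 and 34.1 CPM in double KO, 18.8, 22.4 and 24.9 CPM in Scl KO, 14.7, 15.9 and 15.6 CPM in Lyl1 KO, and 10.7, 13.1 and 15.4 CPM in wild-type libraries (1.29 ± 0.16 in double KO against wild type, edgeR adjusted p = 6.96e-05). Sucla2 was at 61.7, 60.0 and 61.8 CPM in double KO, 87.4, 85.2 and 78.4 CPM in Scl KO, 114, 96.8 and 104 CPM in Lyl1 KO, and 98.7, 109.7 and 97.5 CPM in wild-type libraries (-0.74 ± 0.09, edgeR adjusted p = 7.18e-05). The double KO libraries were the highest for Suclg2 and the lowest for Sucla2, and Suclg1, named after its value was seen, was at 0.04 ± 0.14 (edgeR adjusted p = 0.852). Idh3b, a subunit of the NAD-dependent isocitrate dehydrogenase, rose by 0.41 ± 0.10 (edgeR adjusted p = 0.00932). Idh2, the NADP-dependent isocitrate dehydrogenase, was at -0.88 ± 0.18 (edgeR adjusted p = 0.00277). In Scl KO against wild type, where 5.03% of all genes were called, 1 of the 19 rose (Suclg2, 0.75 ± 0.15, edgeR adjusted p = 0.0152). In that comparison 2 fell (Idh2, -0.78 ± 0.18, edgeR adjusted p = 0.0276, and Fh1, fumarase, -0.57 ± 0.12, edgeR adjusted p = 0.0175). In Lyl1 KO none was called, nor had any an unadjusted edgeR p under 0.05. Of 14 tested cytochrome c and electron carrier genes, Etfb, of the electron transfer flavoprotein, was called in double KO (-0.56 ± 0.13, edgeR adjusted p = 0.00618).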

How the data were processed

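The authors deposited raw read counts per gene for 12 libraries. Per the submitters' processing notes, STAR 2.5.2b, featureCounts of Subread 1.5.2 and limma were used; per the file headers, reads were counted on the reverse strand against Ensembl release 87 gene models of GRCm38, and reads that map to several places were not counted. Groups and replicate numbers come from the labels. The genes and lists were chosen with earlier results of these data known. Named with values were all genes called in a comparison (above 12, the 6 largest changes each way), the highest and lowest per complex, isoform pairs and core subunits.

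Counts were filtered with edgeR's default by group (minimum count 10, total 15; 15399 genes left), scaled by TMM and fitted in R 4.3.3 with edgeR 4.0.16 (robust quasi-likelihood fit of 12 libraries, group as the only term). P-values were adjusted by Benjamini-Hochberg over all genes tested, with a threshold of 0.05. Symbols matched 49326 identifiers and not 345. Depth was 24324685 to 29212443 counts per library; a gene with no count may stand at up to 3 counts, or 0.103 to 0.123 CPM before scaling, which covers counting error only. Alternatives included DESeq2 1.42.0 and limma 3.58.1. The scripts were tested on simulated data. Sums and ratios carry no test. A gene that counts among those tested is not reported here by name.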

Additional observations from a re-analysis of the deposited data

Results flagged for a closer look

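Cox5a was flagged because loss of Lyl1 gave different changes without Scl and with it: the interaction term was -0.59 on the log2 scale (edgeR's quasi-likelihood test, adjusted p = 0.0198). Ndufs4 was flagged on the same ground, at -0.62 (adjusted p = 0.0160); both calls were lost with library totals in place of TMM factors, and on leaving out Lyl1 KO replicate 1 (adjusted p = 0.0734 for Cox5a and 0.0642 for Ndufs4). Of the processed pseudogenes left out of the gene set, Cox6c2 had signal at a mean of 10.9 CPM over 12 libraries and Ndufs6b at a mean of 2.54 CPM, above the limit that a count of 0 allows.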

How the results depend on the processing

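Library totals without scaling factors, an alternative added after seeing the data, moved the counts of called genes to 52 in double KO against wild type, 24 against Scl KO, 40 against Lyl1 KO, 2 in Scl KO against wild type and 1 for the interaction. It turned the sign of 28 of 87 changes in double KO against wild type and 41 against Lyl1 KO, of which 21 and 23 were called on neither scale. Those called on either scale included, against wild type, Atp5j2 (0.17), Ndufb9 (0.11), Ndufs8 (0.41), Sdhb (0.34) and Sdhc (0.37), and, against Lyl1 KO, Atp5e (0.21), Atp5g3 (0.40), Atp5j2 (0.12), Atp5mpl (0.16), Cox6a1 (0.0023), Cox8a (0.40), Ndufa11 (0.066), Ndufa13 (0.13), Ndufa2 (0.080), Ndufs1 (0.45), Ndufs7 (0.41), Sdhc (0.36), Uqcrb (0.15) and Uqcrc1 (0.45); on that scale the median of all genes itself lay at 0.46 and 0.53. DESeq2's Wald test called 3 in Scl KO against wild type, 7 in double KO against Scl KO and 6 for the interaction. Without a filter on low counts 8 were called in double KO against wild type and 13 against Lyl1 KO, and with only the groups compared in the fit 7 were called in double KO against wild type and 1 against Scl KO. The cause was not tested. Leaving out 1 library at a time gave 0 in Lyl1 KO against wild type in every fit, 1 to 2 in Scl KO against wild type, and, for double KO, 9 to 17 against wild type, 1 to 9 against Scl KO and 14 to 25 against Lyl1 KO, with 0 to 7 for the interaction. Replicates share only a number: of 18 same-numbered pairs 10 correlated over 0.1 (-0.04 to 0.44, median 0.12), and 7 of 12 libraries were closest to their own number. Of 36 pairs with different numbers 7 correlated over 0.1 (-0.33 to 0.23, median -0.08). With the replicate block 5 were called in double KO against Scl KO, 16 against wild type and 24 against Lyl1 KO, 4 for the interaction, 1 in Scl KO and 0 in Lyl1 KO against wild type. Of the 42 calls, 22 were kept under all alternatives but library totals, and 12 of these under library totals too. Depth limits the restricted complex IV isoforms.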
